A study of Mus musculus with 3 samples.

Results

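Immediate early genes are switched on within minutes of a stimulus, before any new protein has to be made, and their transcripts are short-lived. Here, 10 immediate early and AP-1 genes were followed, out of 22535 genes listed in at least 1 of the 3 count tables. Not every one of the 10 need fit that description. They are the Fos family members Fos, Fosb, Fosl1 and Fosl2, the Jun family members Jun, Junb and Jund, the stress-induced factor Atf3, and the zinc finger factors Egr1 and Klf6. They were chosen by name, with earlier results of these data known. All 10 were listed in each of the 3 tables. Their UMIs were summed over barcodes with at least 200 genes and at most 50% mitochondrial UMIs, by cell class and by library.

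The cells came from the kidney cortex of adult WT1CreERT2; Rosa26-tdT fl/+ mice, in which the Cre sits in the Wt1 locus. In these mice tamoxifen makes cells with an active Wt1 gene, and their descendants, carry the red fluorescent protein tdTomato (tdT). Podocytes express Wt1 strongly, so that tdT marks them as well as parietal epithelial cells (PECs). Sham held tdT+ and tdT- cells after sham surgery, mixed in 2 parts to 1 part. For IRI24h-TDN, both kidneys had been made ischemic and reperfused (IRI, severe), and cells were taken at 24 h and mixed in the same parts. IRI24h-TD was taken at the same time from tdT+ cells with no tdT- cells added. Cells from 4 kidneys were pooled per group, and each group was sequenced as 1 library on the BD Rhapsody platform. The mice of all 3 groups carried the same alleles. Every library was made from dissociated tissue. A response of these genes to dissociation and their level in the animal therefore cannot be told apart in Sham or after IRI.

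Fos and Jun proteins are basic leucine zipper factors that pair to form the transcription factor AP-1. Jun proteins can pair with each other or with Fos proteins, while Fos proteins need a Jun partner. Atf3 belongs to the related ATF/CREB family and can also pair with Jun proteins. In the kidney these genes are known to be induced by ischemia and by other injury, and in single-cell work they are also known to be induced by enzymatic dissociation.

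The stretch of 150 bases before the RefSeq start site (GRCm38.p6) is given for 1 member of each group with a matched short motif, namely Fos, Jun, Atf3 and Klf6. Promoters of 8 of the 10 genes were used, and those of Fosl1 and Egr1 are not reported here. The lines give the strand that carries the gene. Fos lies at chr12:85473740-85473889 on the plus strand, Jun at chr4:95052223-95052372 on the minus strand, Atf3 at chr1:191183334-191183483 on the minus strand and Klf6 at chr13:5861339-5861488 on the plus strand. Capitals mark TGACG, or CGTCA on the other strand, in Fos and Atf3, and TGACATCA in Jun and Klf6.
Fos: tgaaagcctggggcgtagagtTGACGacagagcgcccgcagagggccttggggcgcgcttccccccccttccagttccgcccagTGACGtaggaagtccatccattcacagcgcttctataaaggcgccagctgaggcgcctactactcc
Jun: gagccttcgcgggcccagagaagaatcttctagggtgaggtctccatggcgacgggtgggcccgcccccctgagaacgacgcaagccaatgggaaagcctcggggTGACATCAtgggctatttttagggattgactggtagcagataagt
Atf3: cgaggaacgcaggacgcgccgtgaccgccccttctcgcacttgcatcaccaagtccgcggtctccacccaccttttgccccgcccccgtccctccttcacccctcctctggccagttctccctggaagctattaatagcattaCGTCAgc
Klf6: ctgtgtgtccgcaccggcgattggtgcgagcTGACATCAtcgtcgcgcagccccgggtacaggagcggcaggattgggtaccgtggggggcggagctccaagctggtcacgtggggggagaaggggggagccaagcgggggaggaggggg
In all, 8 motifs were searched in both directions over the 250 bases before the start. For Junb and Jund the bases just after the start matched no annotated transcript of the gene. The Jund window ended at 70697738, ahead of the annotated gene start at 70698949, so that it may not be the Jund promoter. None of the 8 windows held the AP-1 site TGANTCA, the full cAMP response element TGACGTCA or a serum response factor site of the CArG type. These were held by 6.75%, 1.55% and 1.47% of 32851 promoters. TGACG, a part of the cAMP response element, was found in Fos, Fosb, Junb and Atf3, and in 17.8% of all promoters. TGACATCA was found in Jun and Klf6, and in 2.93% of all promoters. These last 2 motifs were added after the sequences had been read. The GC box GGGCGG was held by 6 of the 8 and by 32.7% of all, the Egr site (GCG, any base, GGGCG) by Fosb and Fosl2 and by 4.70% of all, and TATAAA by Fos and by 12.4% of all. The GC box overlapped the Egr site in both. In Fos, TGACG stood at positions -129 to -125 and -66 to -62, counted back from the start. A match of letters is a description of this window and no evidence of binding.

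After filtering, 26760 of 30008 barcodes remained, 8047 of them from Sham, 9024 from IRI24h-TDN and 9689 from IRI24h-TD. The median depth was 7746, 9151 and 9529 UMIs per cell in that order, and the median mitochondrial share was 4.28%, 3.92% and 3.27%. Between 82 and 96 kept barcodes were shared by each pair of libraries, and they were counted as separate cells. Clustering without the members gave 21 clusters, which were named from marker genes. Podocyte-like cells were 4417, 5188 and 8815 cells, PEC-like cells 560, 229 and 268, and cells like proximal tubular epithelial cells (PTEC-like) 1098, 158 and 106. Cluster 9, with 345, 177 and 326 cells, was left unnamed. Podocyte markers scored highest in it (0.507, beside 0.411 for PEC markers), but its 10 leading genes held 1 PEC marker and 0 podocyte markers. The mesangial-like class was led by Ren1, Myh11, Acta2 and Rgs5, which were on the marker list that named it. Renin and smooth muscle cells were thus not separated from mesangial cells in this class. Comparisons of IRI24h-TDN with Sham were made in the 10 classes that had at least 100 cells in both libraries, a limit set after the cell numbers were seen.

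Levels are UMIs of a gene per 1000000 UMIs of its class and library (CPM), with exact Poisson 95% intervals. A ratio has an exact conditional 95% interval. Both cover counting error only, since each group is 1 library and no difference between groups has a replicate check. No p-value was computed. A gene counted as apart when it was at least 2-fold higher or lower and had at least 50 UMIs over both libraries. Transcript length differs between members, so that each was compared only with itself.

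In podocyte-like cells, Fos, which forms AP-1 together with a Jun protein, stood at 6009 CPM (5984 to 6034) in Sham, 8069 CPM in IRI24h-TDN and 8021 CPM in IRI24h-TD. Both IRI libraries lay above Sham and close to each other. The ratio of IRI24h-TDN to Sham was 1.34 (1.34 to 1.35), short of 2-fold. Over the 10 classes it ran from 0.507 in monocytic-like cells to this value, and it was above 1 in 6 of them. Fosb, the nearest relative of Fos, stood at 2881, 4034 and 4262 CPM, in the same order of libraries. The ratio of IRI24h-TDN to Sham was 1.40 (1.39 to 1.41), the highest of the 10 classes, and the lowest was 0.557 in PEC-like cells. Fosl2, which encodes Fra-2, stood at 180, 403 and 397 CPM. The ratio was 2.24 (2.18 to 2.30), from 6682 UMIs in Sham and 19955 in IRI24h-TDN. Fosl2 lay above 1 in 9 of 10 classes and was at least 2-fold higher in 4 of them, with the highest ratio in PTEC-like cells (30.5 and 91.5 CPM), 2.86-fold in intercalated-like and 2.61-fold in ascending limb-like cells.

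Fosl1, which encodes Fra-1, was the scarcest member in count. Podocyte-like cells had 7 UMIs of it in Sham. After IRI they had 231 in IRI24h-TDN and 427 in IRI24h-TD, so that the levels were 0.189, 4.67 and 5.10 CPM. The ratio of IRI24h-TDN to Sham was 24.7, and its interval of 11.8 to 62.2 was wide because of the 7 UMIs. In PTEC-like cells Fosl1 had 3 UMIs (0.328 CPM) in Sham, 163 UMIs (56.7 CPM) in IRI24h-TDN and 39 UMIs (33.8 CPM) in IRI24h-TD. The ratio of IRI24h-TDN to Sham was 173, with an interval of 58.0 to 846. PEC-like cells already held Fosl1 in Sham, at 26.0 CPM from 146 UMIs, and 56.7 and 78.0 CPM after IRI. Intercalated-like cells had 2 UMIs in Sham (0.958 CPM) and 157 in IRI24h-TDN (32.0 CPM). No UMI of Fosl1 was seen in mesangial-like, ascending limb-like or endothelial-like cells of Sham, where a count of 0 allows up to 1.8, 3.19 and 4.16 CPM (3 counts of the class total).

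Over all kept cells, 194, 913 and 781 UMIs of Fosl1 were counted in the 3 libraries, in the same order. Cells with a UMI of Havcr1, which encodes the tubular injury marker Kim-1, were 0.534%, 4.43% and 1.71% of the cells and held 0.737%, 7.26% and 2.65% of all UMIs. They held 0 of the 194 Fosl1 UMIs in Sham, 245 of 913 (26.8%) in IRI24h-TDN and 117 of 781 in IRI24h-TD. The share of Fosl1 in cells with Havcr1 was thus larger than their share of all UMIs in both IRI libraries, while most Fosl1 UMIs lay outside them.

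**Figure D1:**
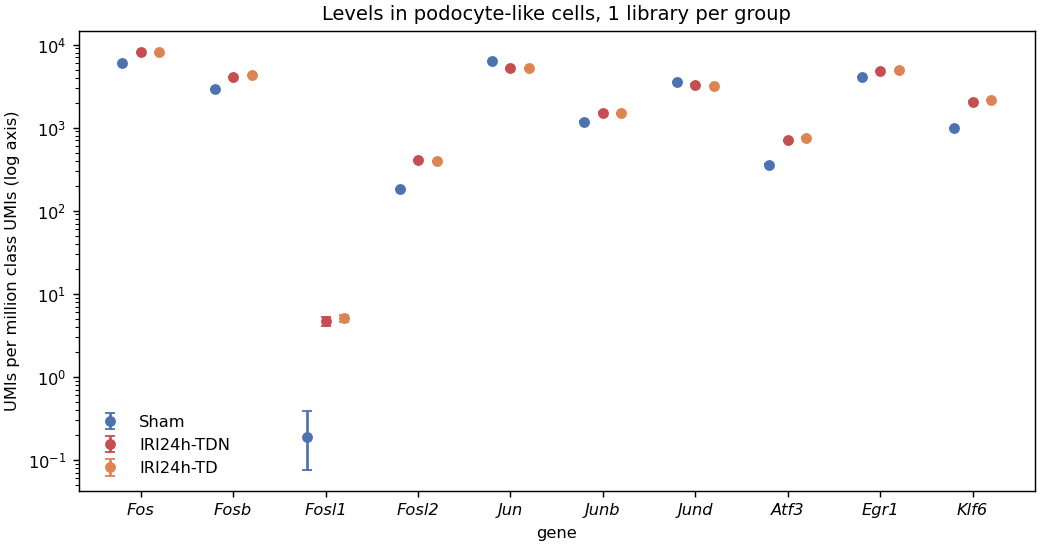
Levels of the 10 genes in podocyte-like cells of the 3 libraries, as CPM on a log axis, with exact 95% Poisson intervals for counting error. Fosl2, Klf6 and Atf3 lay higher in both IRI libraries than in Sham, Jun lay lower, and the 2 IRI libraries lay close together for every gene.

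Jun, the founding member of its family, went the other way. In podocyte-like cells it stood at 6380 CPM (6354 to 6406) in Sham, 5152 CPM in IRI24h-TDN and 5215 CPM in IRI24h-TD. Both IRI libraries lay below Sham, and the ratio was 0.808 (0.803 to 0.812). Jun was also the only one of the 10 whose ratio lay below 1 in 10 of 10 classes, from 0.318 to 0.859, with a median of 0.646. In PTEC-like cells it stood at 2652 CPM in Sham and 941 CPM in IRI24h-TDN, a ratio of 0.355 (0.341 to 0.369). In monocytic-like cells it stood at 3589 and 1141 CPM, a ratio of 0.318 (0.306 to 0.330).

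Junb, which is often induced together with Fos, stood at 1176, 1512 and 1479 CPM in podocyte-like cells (the 3 libraries in the same order), a ratio of IRI24h-TDN to Sham of 1.29 (1.27 to 1.30). Its lowest ratio was in connecting tubule-like cells, at 922 CPM in Sham and 388 CPM in IRI24h-TDN (0.421, 0.392 to 0.453). Jund, the family member that is largely expressed without a stimulus, stood at 3546, 3296 and 3166 CPM in podocyte-like cells, a ratio of 0.929 (0.923 to 0.936). Over the 10 classes its ratio ran from 0.652 to 1.04, so that no class was 2-fold apart. Junb overlaps Prdx2 on the opposite strand, and Jun overlaps the antisense transcript Junos. Fosl1 overlaps Ccdc85b, also on the opposite strand. Whether the counting used strand is not given in the sources used here, so that reads of these pairs may not be separate.

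Atf3, a member of the ATF/CREB family that is induced by many kinds of cell stress, stood at 357 CPM in podocyte-like cells of Sham, 701 CPM in IRI24h-TDN and 759 CPM in IRI24h-TD. Its ratio of 1.96 (log2 0.97) fell just short of 2-fold, and it passed with TMM scaling (log2 1.06) and without the top 1% of cells (log2 1.03). In PTEC-like cells Atf3 stood at 64.9, 313 and 513 CPM, and IRI24h-TDN was 4.83-fold higher than Sham (4.35 to 5.36). In connecting tubule-like cells it was 3.52-fold higher, at 203 and 715 CPM. In ascending limb-like cells it was 2.90-fold higher, at 330 and 956 CPM. In intercalated-like cells it was 2.22-fold higher, at 639 and 1419 CPM. Atf3 was therefore at least 2-fold higher in all 4 tubular classes that were compared. PEC-like cells held 938, 1004 and 1159 CPM, and there the ratio of IRI24h-TDN to Sham was 1.07 (1.02 to 1.12). Monocytic-like cells had the highest Atf3 of any compared class in Sham, 2422 CPM, and 654 CPM in IRI24h-TDN, a ratio of 0.270 (0.258 to 0.283).

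Egr1, a zinc finger factor induced by growth factors and stretch, stood at 4069, 4789 and 4875 CPM in podocyte-like cells of the 3 libraries. The ratio of IRI24h-TDN to Sham was 1.18 (1.17 to 1.18), and podocyte-like cells were the only one of the 10 classes where it was above 1. It was 0.172 (0.166 to 0.178) in monocytic-like cells, where Egr1 stood at 5574 CPM in Sham and 958 CPM in IRI24h-TDN. It was 0.311 in PEC-like cells, at 3305 and 1028 CPM, though 0.744 there without Harmony correction between libraries, and 0.364 in connecting tubule-like cells, at 2254 and 821 CPM. Egr1 thus lay lower after IRI in 9 of 10 classes, at least 2-fold in 3 of them.

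Klf6, a Krüppel-like zinc finger factor, stood at 980 CPM (970 to 990) in podocyte-like cells of Sham, 2058 CPM in IRI24h-TDN and 2154 CPM in IRI24h-TD. The ratio of IRI24h-TDN to Sham was 2.10 (2.08 to 2.13). It was 2.43 in PTEC-like cells, 2.44 in ascending limb-like cells and 2.28 in connecting tubule-like cells, and just below 2-fold in cluster 9 (1.98) and in endothelial-like cells (1.90). Only PEC-like cells, with 2636 and 1945 CPM (0.738), and monocytic-like cells, with 4404 and 1782 CPM (0.405), lay below 1. In the sum of all kept cells Klf6 stood at 1122, 1899 and 2140 CPM.

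**Figure D2:**
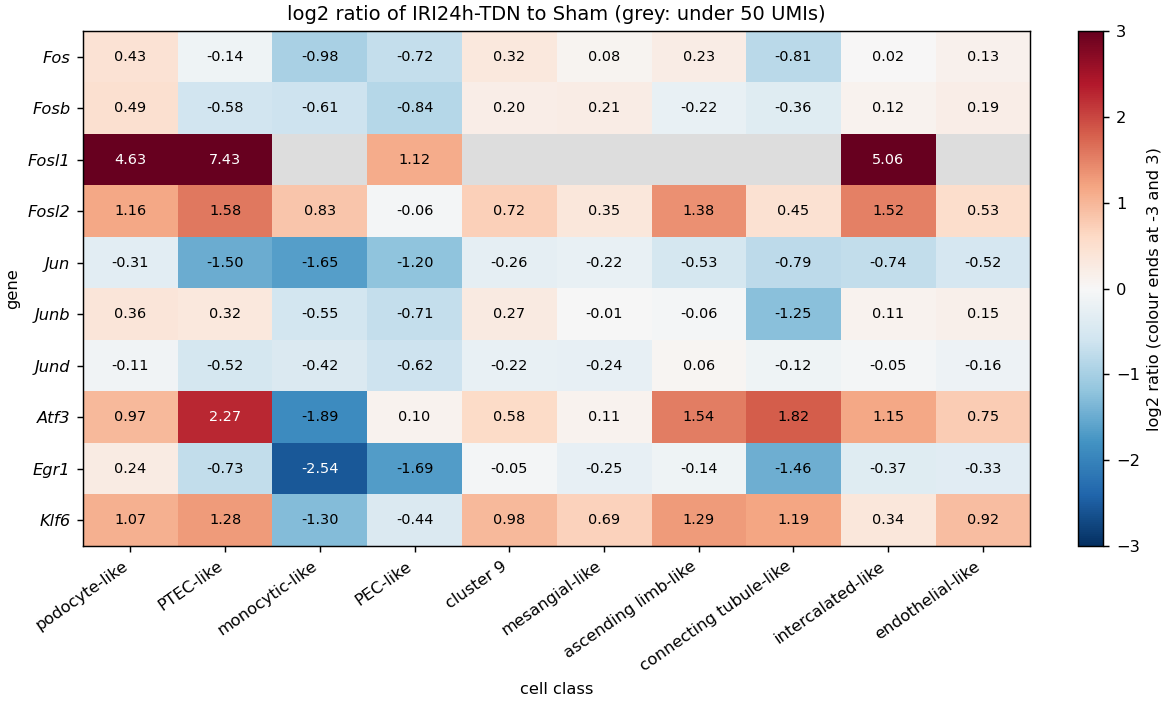
log2 ratio of IRI24h-TDN to Sham for each gene (rows) in each of the 10 classes (columns), with grey where a gene had under 50 UMIs over both libraries. Jun is blue in all 10 classes, Klf6 and Atf3 are red in all tubular classes, and monocytic-like cells are blue for 8 of the 9 genes shown.

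The counts of members past 2-fold were set beside the share of all genes that passed the same rule in the same class. In podocyte-like cells 0 members were lower and 3 were higher (Fosl1, Fosl2 and Klf6), while 7.06% of 11943 genes were lower and 4.55% higher. In PTEC-like cells Jun alone was lower and 4 were higher (Fosl1, Fosl2, Atf3 and Klf6), beside 13.3% and 14.3% of all genes. In PEC-like cells Jun and Egr1 were lower and Fosl1 was higher, beside 9.69% and 6.31%. Both of the lower calls were lost without Harmony correction (0.697 for Jun and 0.744 for Egr1), and that of Jun also at resolution 1.5 (log2 -0.78). In monocytic-like cells 4 of 9 measured members were lower (Jun, Atf3, Egr1 and Klf6) and 0 higher, beside 5.29% and 13.5%.

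Among the other classes, ascending limb-like cells had 0 members lower and 3 higher (Fosl2, Atf3 and Klf6), beside 8.21% and 7.97% of all genes. Connecting tubule-like cells had 2 lower (Junb and Egr1) and 2 higher (Atf3 and Klf6), beside 5.72% and 7.1%. Intercalated-like cells had 0 lower and 3 higher (Fosl1, Fosl2 and Atf3), beside 4.54% and 7.64%. No member was 2-fold apart in 3 classes. There the shares of all genes were 7.97% lower and 2.46% higher in cluster 9, 3.3% and 3.32% in mesangial-like cells, and 7.53% and 4.26% in endothelial-like cells. The median log2 ratio of the members was 0.46 in podocyte-like and -0.98 in monocytic-like cells, where that of all genes was -0.04 and 0.25. It was -0.66 in PEC-like and -0.36 in connecting tubule-like cells, where that of all genes was -0.02 and -0.01. In PTEC-like cells it was 0.09, beside 0.11 for all genes.

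The 2 IRI libraries were then compared in podocyte-like cells. Between IRI24h-TD and IRI24h-TDN 0 of 10 members were 2-fold apart, beside 1.24% of 12062 genes lower and 0.124% higher in IRI24h-TD. The ratios ran from 0.961 for Jund to 1.09 for Fosl1. The members thus stood nearly level between the podocyte-like cells of the 2 IRI libraries, although one held tdT+ cells alone and the other a mixture.

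**Figure D3:**
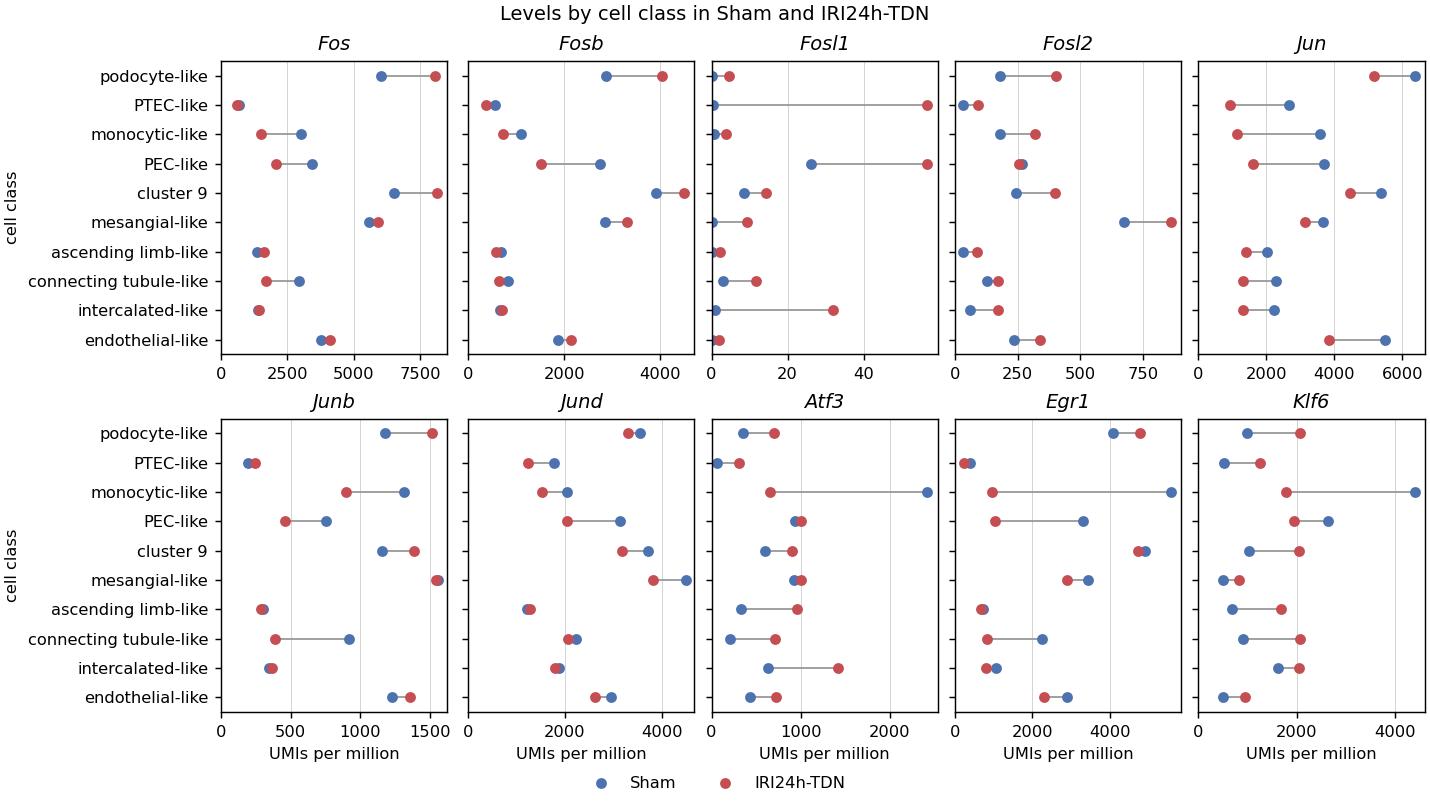
Levels of the 10 genes in the 10 compared classes of Sham and IRI24h-TDN, in CPM, 1 panel per gene with its own axis from 0. Monocytic-like cells had the highest Atf3, Egr1 and Klf6 in Sham and moved below other classes in IRI24h-TDN, and PTEC-like cells had the lowest Fos, Fosb and Egr1 in both libraries.

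The order of the 10 compared classes differed between members already in Sham. Fibroblast-like cells, 118 in Sham and 39 in IRI24h-TDN, were too few to be compared but had more Fos (7291 CPM), Fosb (4428 CPM) and Egr1 (5523 CPM) in Sham than cluster 9. Among the compared classes, Fos was highest in cluster 9 (6532 CPM), then in podocyte-like cells (6009 CPM) and mesangial-like cells (5582 CPM), and lowest in PTEC-like cells (683 CPM). Monocytic-like and connecting tubule-like cells did not differ beyond their counting intervals (3005 and 2945 CPM), nor did intercalated-like and ascending limb-like cells (1404 and 1381 CPM). Jun was highest in podocyte-like cells, and endothelial-like cells (5483 CPM) and cluster 9 (5366 CPM) followed without a difference beyond their intervals. PEC-like, mesangial-like and monocytic-like cells (3683, 3661 and 3589 CPM) also had overlapping intervals with their neighbours.

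Among the 10 compared classes, Atf3, Egr1 and Klf6 were all highest in monocytic-like cells of Sham. For Atf3, PEC-like and mesangial-like cells followed with overlapping intervals (938 and 929 CPM), and PTEC-like cells were lowest. For Egr1, cluster 9 (4896 CPM) and podocyte-like cells followed among these classes, and PTEC-like cells were lowest (402 CPM). For Klf6, PEC-like cells (2636 CPM) and intercalated-like cells (1621 CPM) followed, and PTEC-like, mesangial-like and endothelial-like cells formed the low end with overlapping intervals (517, 509 and 500 CPM, by exact Poisson limits). Among the same 10 classes, Fosl2, Junb and Jund were highest in mesangial-like cells, at 675, 1552 and 4510 CPM, and Fosb was highest in cluster 9, at 3921 CPM. After IRI the highest of the 10 classes changed for 4 members: Fosl1 from PEC-like to PTEC-like, Atf3 from monocytic-like to intercalated-like (1419 CPM), Egr1 from monocytic-like to podocyte-like, and Klf6 from monocytic-like to connecting tubule-like cells (2072 CPM). The intervals of Fosl1 in PTEC-like and PEC-like cells of IRI24h-TDN overlapped, at 56.7 CPM in each. So did those of Egr1 in podocyte-like cells and cluster 9 (4789 and 4714 CPM), and those of Klf6 in connecting tubule-like cells, podocyte-like cells and cluster 9.

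Podocyte-like cells were split to see whether the ratios held within parts of the class. Groups of equal size were cut by rank within each library, so that the groups compared were not matched in value. The median UMIs per cell of the groups by depth were 6059, 8238 and 10652.5 in Sham and 6870, 9325 and 12035 in IRI24h-TDN. In 3 equal groups of cells by mitochondrial share, the ratio of IRI24h-TDN to Sham ran from 1.29 to 1.39 for Fos, 2.05 to 2.22 for Klf6, 2.16 to 2.32 for Fosl2, 1.87 to 2.20 for Atf3 and 0.778 to 0.843 for Jun. In 3 equal groups by UMIs per cell the ranges were 1.32 to 1.37 for Fos, 2.03 to 2.20 for Klf6 and 0.792 to 0.853 for Jun. Every member other than Fosl1 kept its side of 1 in all 3 groups of both splits. Within Sham, Fos was 6633 CPM in the group with the lowest mitochondrial share and 5266 CPM in the group with the highest.

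The 6 podocyte-like clusters with at least 20 cells in both libraries differed more. The ratio of Fos ran from 1.05 in cluster 5 to 2.26 in cluster 2, that of Egr1 from 0.778 to 2.35 and that of Jun from 0.631 to 1.19. Cluster 2 had the lowest Fos of the podocyte-like clusters in Sham, 3411 CPM in 558 cells, against 7720 CPM in its 1123 cells of IRI24h-TDN. Clusters 0 and 5 stood at 7806 and 7357 CPM in Sham and at 8274 and 7725 CPM in IRI24h-TDN. Fos, Fosb, Fosl2, Atf3 and Klf6 were above 1 in 6 of 6 clusters. Jun was below 1 in 5 of 6, and Egr1 and Junb were above 1 in 4 of 6. The clusters were made without the members, the other immediate early genes and the heat shock genes.

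**Figure D4:**
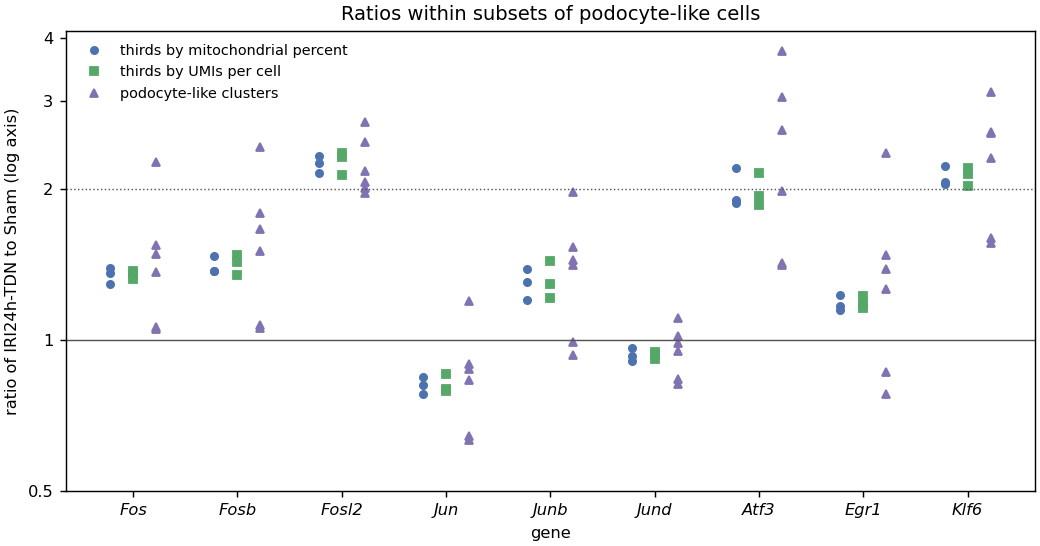
Ratio of IRI24h-TDN to Sham on a log axis for 9 members (Fosl1 left out for its few UMIs in Sham) within 3 equal groups of podocyte-like cells by mitochondrial share, within 3 by UMIs per cell, and within 6 podocyte-like clusters. The equal groups lie close together for each gene, and the clusters spread more, from 1.05 to 2.26 for Fos. The dotted line marks 2-fold.

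The spread between cells was described after thinning each cell to 2400 UMIs, which left out 102 podocyte-like Sham cells, 4 IRI24h-TDN cells and 596 IRI24h-TD cells. For Fos, the 10th percentile, median and 90th percentile were 4, 14 and 25 UMIs per thinned cell in Sham, 10, 19 and 30 in IRI24h-TDN and 10, 19 and 29 in IRI24h-TD. The low end of the cells differed more between Sham and IRI than the high end. Egr1 showed the same shape, with 1, 9 and 19 UMIs in Sham and 4, 11 and 19 in IRI24h-TDN. For Jun the values were 6, 15 and 24 in Sham and 5, 12 and 21 in IRI24h-TDN. The variance of Fos was 4.35 times its mean in Sham, 3.21 times in IRI24h-TDN and 3.10 times in IRI24h-TD. Before thinning, 98.2% of podocyte-like cells of Sham had a UMI of Fos (exact Clopper-Pearson 97.8% to 98.6%), and 97.0% after it.

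**Figure D5:**
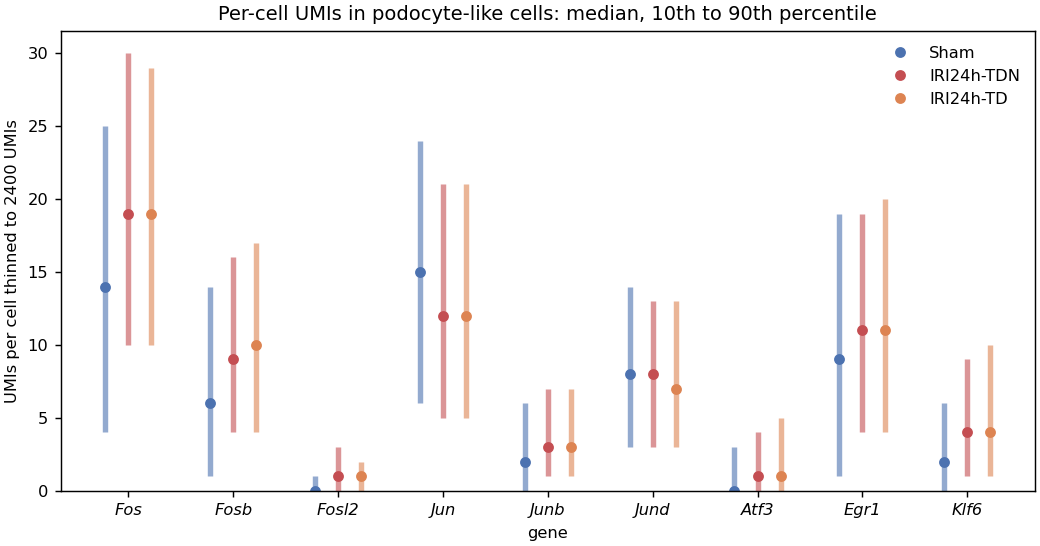
UMIs of 9 members per podocyte-like cell thinned to 2400 UMIs, with the median as a point and a bar from the 10th to the 90th percentile, for the 3 libraries. The bars of Fos begin at 4 in Sham and at 10 in both IRI libraries, while those of Jun end lower after IRI.

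Members also varied together from cell to cell. Over the 36 pairs without Fosl1, the Pearson correlation of log(1 + UMIs) in thinned podocyte-like cells had a median of 0.32 in the 4315 cells of Sham, 0.18 in the 5184 of IRI24h-TDN and 0.19 in the 8219 of IRI24h-TD. The highest pair was Fos with Fosb in Sham (0.67) and Fos with Egr1 in both IRI libraries (0.51 in each). The lowest pair was Fosl2 with Jund in Sham (0.07) and Fosl2 with Jun after IRI (-0.05 in each). Cells of a library are not replicates, and depth was held equal by the thinning, so that these values describe each library only.

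Marker genes give the context of these values. In podocyte-like cells the 10 podocyte markers were all detected and summed to 47346 CPM in Sham, 42190 CPM in IRI24h-TDN and 43396 CPM in IRI24h-TD. The 16 PTEC markers summed to 375 CPM in Sham, with all 16 detected, and to 19.0 and 14.6 CPM after IRI. The 7 markers of injured tubules summed to 4.53, 5.20 and 3.58 CPM. The part of these markers in the member ratios was not tested. Podocyte markers were also seen in the tubular classes. In Sham and IRI24h-TDN they summed to 2489 and 1324 CPM in PTEC-like cells and to 5101 and 3865 CPM in ascending limb-like cells. The sums were 1626 and 1577 CPM in connecting tubule-like cells, and 1730 and 2761 CPM in intercalated-like cells. Their part in the member levels and ratios of the tubular classes was not tested.

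PEC-like and PTEC-like cells changed in kind between the libraries, and the member ratios there stand beside that change. In PTEC-like cells Slc34a1, the sodium-phosphate cotransporter of the proximal tubule, stood at 4974 CPM in Sham, 594 CPM in IRI24h-TDN and 519 CPM in IRI24h-TD, while Havcr1 stood at 5.36, 2795 and 1101 CPM. The 16 PTEC markers summed to 59145, 10583 and 8942 CPM, and the median depth was 6974, 14840 and 9874 UMIs. In PEC-like cells Slc34a1 stood at 621, 17.8 and 8.70 CPM and Havcr1 at 9.81, 327 and 244 CPM, while the 12 PEC markers summed to 7352, 7355 and 9774 CPM. The part of these changes in the member ratios was not tested.

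Among PTEC-like cells without a UMI of Havcr1, 1062 in Sham and 29 in IRI24h-TDN, Klf6 stood at 518 and 1972 CPM, Atf3 at 62.6 and 325 CPM, and Jun at 2619 and 1478 CPM. Atf3, Klf6 and Fosl2 were still at least 2-fold higher. Jun was no longer 2-fold lower, and 0 members were. In the 129 PTEC-like cells of IRI24h-TDN with Havcr1, Fosl1 stood at 61.2 CPM, Atf3 at 312 CPM and Klf6 at 1163 CPM. Without Harmony correction only 9 cells of IRI24h-TDN were PTEC-like. There 0 members were lower and 6 were higher, among them Fos (4.37), Egr1 (3.06) and Fosb (2.11), whose ratios were below 1 with the correction, while Fosl2 was no longer 2-fold higher. Among PEC-like cells without a UMI of Slc34a1 or Havcr1, Jun and Egr1 were still lower and Fosl1 higher by 2-fold, with log2 ratios of -1.22, -1.77 and 1.39. Without Harmony correction 0 members were 2-fold lower in PEC-like cells, and Fos (1.03) and Klf6 (1.35) had ratios above 1. The share of all genes past 2-fold was not computed for these subsets or without Harmony correction. The counts of members there therefore have no such share beside them. In IRI24h-TD, PTEC-like cells held more Fos (1480 CPM) and Egr1 (809 CPM) than in IRI24h-TDN (621 and 242 CPM). Their podocyte markers summed to 4845 CPM there and to 1324 CPM in IRI24h-TDN, and the part of this in the difference was not tested.

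In monocytic-like cells, 279 in Sham and 911 in IRI24h-TDN, the members together took 2.36% of all UMIs in Sham and 0.951% in IRI24h-TDN. In podocyte-like cells their share was 2.56% in Sham and 3.03% in IRI24h-TD, with IRI24h-TDN between them. The monocytic class was made of 2 clusters. Cluster 8, led by C1qa, C1qb and C1qc, genes of resident macrophages, held 254 of the Sham cells and 713 of the IRI24h-TDN cells. Cluster 16, led by Chil3, Fn1 and Arg1, held 25 and 198. Within cluster 8 alone the ratio was 0.193 for Egr1, 0.290 for Atf3, 0.327 for Jun and 0.406 for Klf6, so that all 4 stayed at least 2-fold lower. In cluster 16 Egr1 stood at 2212 and 363 CPM, and Klf6 at 1304 and 1369 CPM, from 25 cells in Sham. Podocyte markers summed to 3422 CPM in monocytic-like cells of Sham and 3172 CPM in IRI24h-TDN, and their part in these ratios was not tested.

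Lists of related genes were described by their counts and medians. Among other immediate early genes, 29 of 30 had at least 50 UMIs in podocyte-like cells. Of these 13 were at least 2-fold higher in IRI24h-TDN and 0 lower, beside 4.55% and 7.06% of all genes. Their median log2 ratio was 0.92, beside -0.04 for all genes. The highest were Egr3, a relative of Egr1, at 4.18 CPM in Sham and 47.2 CPM in IRI24h-TDN (11.3-fold), and Nfkbia, which encodes the inhibitor of NF-κB, at 451 and 1773 CPM (3.93-fold). The lowest ratios were those of Dusp1 (0.854) and Rhob (0.855). In monocytic-like cells 4 of 29 were lower and 2 higher, beside 5.29% and 13.5% of all genes, with a median of -0.53. In PEC-like cells 3 of 30 were lower and 1 higher, beside 9.69% and 6.31%, with a median of -0.37, so that the share lower was near that of all genes.

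Other basic leucine zipper genes had a median of -0.02 in podocyte-like cells. There 3 of 18 were higher and 1 lower, beside 4.55% and 7.06% of all genes, so that the share lower was near that of all genes. Cebpd stood at 43.9 CPM in Sham and 372 CPM in IRI24h-TDN (8.47-fold) and Maff at 47.5 and 207 CPM (4.35-fold). Maf was lower, at 4.51 and 1.60 CPM (0.354). Of the genes that encode upstream kinases and phosphatases, 5 of 21 were higher and 0 lower in podocyte-like cells, beside the same shares of all genes. Map3k8 (5.41-fold) and Dusp5 (2.50-fold) were the highest, and Mapk14 (0.801) and Map2k7 (0.926) the lowest. The median of this list was above that of all genes in 10 of 10 classes, at between 0.09 and 0.46.

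Among heat shock genes, which are also known to respond to dissociation, the median was below 0 in 10 of 10 classes. It ran from -1.29 in monocytic-like to -0.45 in PEC-like cells. In podocyte-like cells it was -0.52, with 3 of 13 lower and 0 higher, beside 7.06% and 4.55% of all genes. Hspe1 stood at 105 CPM in Sham, 23.5 CPM in IRI24h-TDN and 22.9 CPM in IRI24h-TD (0.223 for IRI24h-TDN), and Hspa1a at 337, 131 and 121 CPM (0.389). The highest of the list were Dnajb4 (1.46-fold) and Bag3 (1.21-fold). In monocytic-like cells 8 of 13 heat shock genes were at least 2-fold lower and 0 higher, beside 5.29% and 13.5% of all genes.

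Genes known as AP-1 targets encode proteases, their inhibitors, cytokines and surface receptors. In PTEC-like cells 9 of 11 were higher and 0 lower, beside 14.3% and 13.3% of all genes. The median log2 ratio was 2.56 there, beside 0.11 for all genes. In ascending limb-like cells 10 of 14 were higher and 1 lower, beside 7.97% and 8.21% of all genes, with a median of 2.17. In podocyte-like cells 4 of 13 were higher and 0 lower, beside 4.55% and 7.06% of all genes, with a median of 0.27. There Timp1, an inhibitor of matrix metalloproteinases, had 16 UMIs in Sham and 596 in IRI24h-TDN (27.9-fold, 17.0 to 49.1). Plau (0.525) and Hbegf (0.654) had the lowest ratios. In IRI24h-TD against IRI24h-TDN, 4 of 14 targets were lower in podocyte-like cells (Ccl2, Plau, Plaur and Gdf15), beside 1.24% of all genes. There 0 of the other lists' genes were 2-fold apart.

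For each member the non-member genes with the most similar levels were found over the 28 groups of class and library with at least 50 cells, among 11440 genes, by the Pearson correlation of log2(CPM + 1). The groups share libraries and the same cells' depth, and podocyte-like cells appear in all 3 libraries, so that the values describe these groups only. Fos was most like Ccdc82, Ier2 and Specc1l (0.93, 0.92 and 0.92), and among the members most like Egr1 (0.95). Fosb was most like Hspa12a, Frmd6 and Timp2 (0.92 each). Jun was most like Marf1, Kdm5a and Sema3g (0.90, 0.89 and 0.88), and Junb like Ier2, Bicd2 and Macf1 (0.95, 0.94 and 0.93). Ier2, an immediate early gene, was among the nearest genes of Fos, Junb and Egr1.

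Egr1 was most like Ier2, Bptf and Specc1l (0.91, 0.90 and 0.90), Jund like Atoh8, Upf2 and Arid2 (0.87, 0.87 and 0.86) and Fosl2 like Esyt1, Csrnp1 and Sept7 (0.93, 0.90 and 0.90). Fosl1 stood apart from the other members, with a highest correlation of 0.51 among them (Klf6), and was most like Tnfrsf12a, a receptor of the TNF family, Tfg and Gspt1 (0.84, 0.83 and 0.80). Atf3 was most like Anxa5, Rela and Zbtb10 (0.75, 0.74 and 0.73), and Klf6 like Arl4c, Slf1 and Abcc3 (0.69, 0.67 and 0.67). The most similar genes of Atf3 and Klf6 were thus less close than those of the Fos and Jun families.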

How the data were processed

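Kidney cortex cells were profiled on the BD Rhapsody platform, with 1 library for each of 3 groups (Sham, IRI24h-TDN, IRI24h-TD). The values used are raw counts of UMIs by gene and barcode, as the authors deposited them. Per the labels, CASAVA 1.8, UMI-tools, Seurat and the mouse build mm10 were used. Filters on cells, the annotation and the strand of counting were not given in the sources used here. Library totals were 69980443, 92355554 and 93470709 UMIs.

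Barcodes with fewer than 200 genes or over 50% mitochondrial UMIs were left out. Counts were scaled to 10000 per cell, and 2000 variable genes were chosen without the members, immediate early, heat shock, mitochondrial, ribosomal and haemoglobin genes. From them 30 principal components, corrected between libraries by Harmony (theta 2, written in numpy 2.4.6), were clustered on 15 neighbours with leidenalg 0.10.2 at resolution 1 (Python 3.11.15, scipy 1.17.1, pandas 2.3.3). A class needed at least 3 of its markers, each in 25% of the cells. A cluster also stayed unnamed when its leading genes held more markers of another class than of its own. No doublets were removed, and leaving out the top 6% of doublet scores was an alternative. Such scores were more frequent in Sham than in IRI24h-TDN in PEC-like (10.7% and 3.93%) and PTEC-like cells (8.29% and 2.53%). The same held in ascending limb-like (15.2% and 5.04%) and connecting tubule-like cells (10.7% and 2.71%). In podocyte-like cells they were less frequent in Sham (3.44% and 6.40%). edgeR 4.0.16 in R 4.3.3 gave TMM factors. A count of 0 was set to a floor of 3 counts in ratios. In simulated Poisson class sums, the ratio and 2-fold steps recovered known folds larger than 2-fold. Clustering, correction between libraries, class naming and spread between libraries were not simulated.

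All 10 members are named. Also named are the 3 genes most like each member and the 2 genes of each related list with the largest podocyte-like ratio in each direction, except that 2 of these genes are not reported here. The members and lists were chosen with earlier results of these data known. The splits by Havcr1 and Slc34a1 were added after seeing the data.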

Additional observations from a re-analysis of the deposited data

Results flagged for a closer look

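In the barcodes that were left out for having under 200 genes, the summed UMIs of the members lay above the limit that a count of 0 allows, while Fosl1 had 0 UMIs in Sham and IRI24h-TD and 1 in IRI24h-TDN. Together the members stood at 788 CPM in 1547 such barcodes of Sham, 518 CPM in 444 of IRI24h-TDN and 1704 CPM in 118 of IRI24h-TD, beside limits of 1.01, 2.32 and 20.4 CPM. Atf3 and Klf6 had ratios of IRI24h-TDN to Sham at least 2-fold apart from 1 in opposite directions in different classes. For Atf3 the ratio was 0.270 in monocytic-like cells and 4.83 in PTEC-like cells. For Klf6 it was 0.405 in monocytic-like cells and 2.44 in ascending limb-like cells. With 1 library per group the differences between classes were not tested.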

How the results depend on the processing

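Alternatives were run for the ratios of podocyte-like, PEC-like and PTEC-like cells only. The ratios of the other compared classes, among them monocytic-like and connecting tubule-like cells, had no such check. In podocyte-like cells each of the 10 members kept the sign of its log2 ratio of IRI24h-TDN to Sham under all 12 alternatives. The log2 ratio of Fos, 0.43, moved beyond its counting interval to 0.40 when scaled without mitochondrial, ribosomal protein and haemoglobin genes, 0.51 with TMM scaling, 0.44 as a mean over cells and 0.43 (0.434 beside 0.425) without the top doublet scores. TMM moved ratios by 0.08 in podocyte-like, 0.00 in PEC-like and -0.18 in PTEC-like cells on the log2 scale. In PEC-like cells, the 2 members at least 2-fold lower became 0 without Harmony correction and 1 (Egr1) at resolution 1.5. In PTEC-like cells, the 1 member lower (Jun) became 0 without Harmony correction, where 9 cells of IRI24h-TDN remained, and 0 in cells without Havcr1, an alternative added after seeing the data. A sign changed under some alternative for 5 members in PEC-like cells and 4 in PTEC-like cells, none of them 2-fold apart before the change. In PTEC-like cells without Harmony correction 3 of them became at least 2-fold higher (Fos 4.37, Egr1 3.06 and Fosb 2.11). In all, 6 members were higher there in place of 4, and Fosl2 was no longer among them. Over all alternatives in PTEC-like cells, the highest ratio of Junb was 3.95, and Fosl1 had enough UMIs for a ratio under only 10. The share of all genes past 2-fold was not computed without Harmony correction, at resolution 1.5 or in cells without Havcr1. With at least 10 in place of 50 UMIs, the share of all genes 2-fold lower in podocyte-like cells rose from 7.06% to 12.1%. No paired analysis was possible because each group was 1 library. Counting error is small for most members, the spread between animals is unknown, and Fosl1 is limited by 7 UMIs in podocyte-like cells of Sham. The causes of these shifts were not tested.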
